A study of Mus musculus with 8 samples.

Results

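The nuclear-encoded subunits of the mitochondrial respiratory chain were examined in poly(A) RNA from mouse tibialis anterior and extensor digitorum longus, 3 days after injury, where the sources differ on whether sorted stem cells or the muscles themselves were used. Members were the genes whose names start with Nduf (assembly factors and Ndufs5 left out), Uqcr, Cox4, Cox5, Cox6, Cox7, Cox8 or Atp5, together with Sdha, Sdhb, Sdhc, Sdhd and Cyc1. The rule found 85 of the 16573 gene symbols of the authors' deposited table, with 121 of its 36743 rows. By complex these were 36 genes of complex I, 4 of complex II, 9 of complex III, 18 of complex IV and 17 of complex V (ATP synthase), and the transcribed pseudogene Ndufs5-ps. Ndufa4 and its relative Ndufa4l2 were counted with complex IV, where Ndufa4 is known to sit.

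All libraries came from muscles injured with notexin at 2 mg/mL, a venom toxin that kills muscle fibres. The labels give 4 libraries of genotype Ctrl and 4 of genotype Psat1iKO, written Psat1KO in the library titles. Psat1 encodes phosphoserine aminotransferase, an enzyme of serine synthesis, and the series' title places this pathway in muscle regeneration. Sorted muscle stem cells are the labelled cell type, whereas the design text describes Trizol extraction of the muscles. The deletion allele, the driver and timing of its induction, and the strain, sex and age of the mice are not given here. The labels do not state that each library is a separate mouse. The p-values therefore reflect spread among these libraries only, and that spread may be technical.

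The respiratory chain passes electrons from NADH through complex I, or from succinate through complex II, to ubiquinone, and on through complex III and cytochrome c to oxygen at complex IV. Complexes I, III and IV pump protons, and complex V uses the proton gradient to make ATP. Most subunits are encoded in the nucleus and join a few encoded in mitochondrial DNA, and adult muscle uses its own isoforms of several complex IV subunits.

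The deposited values are 1 line of statistics per row over all 8 libraries, so values of single libraries, their SD and the sequencing depth are not given here. A row is finer than a gene, and the row of highest mean normalized count is called the leading row. Differences are Psat1iKO minus Ctrl on the log2 scale, with the authors' DESeq2 standard error (SE), and a row with their adjusted p under 0.05 is called. Group levels are fitted means, computed here from a row's mean count and fold change with equal group sizes assumed. Psat1 itself, by its leading row Psat1.1, had fitted means of 20204 in Ctrl and 14362 in Psat1iKO, a difference of -0.49 ± 0.0675 (adjusted p = 1.22e-09) in the authors' deposited table. Markers of muscle stem cells and myoblasts were abundant, with a median mean count of 11264 over 10 of 10 measured, and 1 of them was called, Myod1, which rose by 0.16 ± 0.0386 (DESeq2 adjusted p = 0.0058). The 8 of 10 measured macrophage markers had a median of 90.8, and their summed fitted means were 3307 in Ctrl and 744 in Psat1iKO with all 8 leading rows below 0 (median -1.96), 0 of 8 called and 2 of them lower at an unadjusted p under 0.05 in DESeq2.

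No row of these members was called, with Ndufs5, described further on, left out by the rule. Over the whole authors' deposited table DESeq2 called 0.656% of rows, 0.332% higher and 0.324% lower. Of leading rows it called 0.338%, 0.193% higher and 0.145% lower. Among the subunits the count was 0 of 121 rows and 0 of 85 leading rows, and the smallest adjusted p was 0.596. With p-values readjusted over leading rows, 0.223% of them and 0 members were called, and readjusted over rows with a mean of 100 or more, 0.489% of them and 0 members. At an unadjusted p under 0.05 there were 3 leading rows, 2 higher and 1 lower, which is 3.53% of the members beside 4.09% of all leading rows. At these background rates a count of 0 called members does not set the subunits apart from other genes. In bulk RNA, fewer cells of a type and less RNA per cell cannot be told apart.

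The subunit transcripts were abundant, and the differences of most were near 0 with narrow intervals. Their median mean count was 4776, against 312 over all leading rows, and together they held 1.77% of all normalized counts. Summed over members, the fitted means were 656969 in Ctrl and 651107 in Psat1iKO, a difference of -0.01. The median difference over the 85 leading rows was -0.01, the same to 2 decimals as over all leading rows. For the 72 members with a mean count of 1000 or more, the differences ran from -0.08 to 0.08. The 95% Wald interval lay inside a 1.2-fold difference in either direction for 71 of these 72, and Atp5k, a small membrane subunit of complex V, was the exception at 1.21-fold. Over all leading rows with a mean count of 1000 or more the same bound held for 71.9% of 5341. The 2 sets are not matched in abundance, with median mean counts of 5477 for these members and 2542 for all such rows. The shares therefore do not set the subunits apart. The limits of 1000 counts and 1.2-fold were chosen after values were seen.

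**Figure D1:**
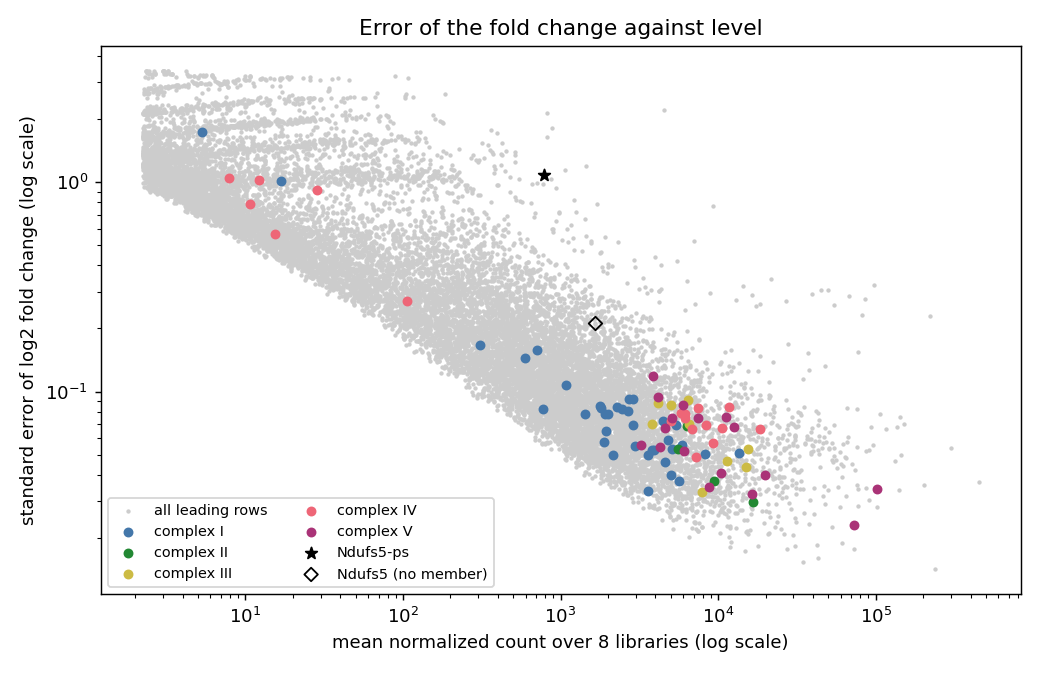
DESeq2 standard error of the log2 difference against the mean normalized count over 8 libraries, both on log axes, for the leading rows of all genes (grey) and of the subunits (coloured by complex). The subunits lie among other genes of like abundance, and Ndufs5-ps (star) stands above them with an SE of 1.08.

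The SE of most members was like that of other genes of the same abundance. Relative to leading rows with a mean count within a factor of 2, the median ratio of SE was 1.01. Atp5a1, the alpha subunit of complex V, had the lowest ratio at 0.434, and Ndufs5-ps the highest at 8.99.

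Complex I oxidises NADH and is the largest complex by number of subunits. Its 36 genes had a median difference of -0.00, with 19 below and 17 above 0 in the authors' deposited table. Summed fitted means were 125553 in Ctrl and 124845 in Psat1iKO. The subunits that bind NADH and its first electron acceptors had values near 0. Ndufv1, which carries the flavin, had fitted means of 8242 in Ctrl and 8191 in Psat1iKO, a difference of -0.01 ± 0.0502. Ndufv2 had a difference of -0.02 ± 0.0529 and Ndufs1, from its leading row Ndufs1.3, one of 0.03 ± 0.0548. The Ndufs1 leading row held 32.6% of that gene's counts, the lowest share of any member.

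Subunits on the path of electrons to ubiquinone lay equally close. Ndufs3, Ndufs7 and Ndufs8 had differences of 0.00 ± 0.0525, -0.03 ± 0.0585 and -0.01 ± 0.0692 in the authors' deposited table. Among complex I genes with a mean of 100 or more, the lowest difference was that of Ndufb2, an accessory subunit, at -0.09 ± 0.159. The highest was that of Ndufab1, the mitochondrial acyl carrier protein, at 0.08 ± 0.167. Their mean counts were 706 and 310, and both intervals were wide. Of the genes counted with complex I, Ndufb4b had the highest difference at any abundance, 1.11 ± 1.73 on a mean count of 5.27. Ndufb4b was counted by its name and was not taken as a subunit of the assembled complex.

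Ndufa13, a membrane subunit of complex I, was listed at a mean count of only 16.7, with a difference of 0.43 ± 1.01. In the GENCODE M21 annotation it overlaps Yjefn3 on the same strand of chromosome 8, and Yjefn3 has no row in the authors' deposited table. How reads in overlapping genes were counted is not given, so the low level of Ndufa13 is uncertain.

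Complex II, succinate dehydrogenase, is wholly nuclear-encoded. Its summed fitted means were 38338 in Ctrl and 38272 in Psat1iKO. Sdha, the flavoprotein that oxidises succinate, had fitted means of 16649 and 16801, a difference of 0.01 ± 0.0295 with one of the narrower intervals among members. Sdhb, the iron-sulfur subunit, had 0.03 ± 0.0685. Sdhb lies at chr4:140961203-140979193 (GRCm38), and is the 1 member within 20 Mb of Pax7. Ndufs5, left out by the rule and described further on, also lies within that distance of Pax7. Of the membrane anchors, Sdhd had a difference of -0.03 ± 0.0375 and Sdhc one of -0.08 ± 0.0532. A minor row, Sdhc.1, had the smallest p among minor rows of members, with 0.82 ± 0.432 on a mean count of 218 (unadjusted p = 0.0568 in the authors' deposited table).

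Complex III moves electrons from ubiquinol to cytochrome c. All 9 of its nuclear-encoded genes had a difference below 0, and each was close to it, from -0.08 to -0.00 with a median of -0.04. Summed fitted means were 77191 in Ctrl and 75440 in Psat1iKO, a difference of -0.03. Cyc1, cytochrome c1, had fitted means of 15636 and 15309, a difference of -0.03 ± 0.0534. Uqcrfs1, the Rieske iron-sulfur protein, had -0.02 ± 0.0331, and the core proteins Uqcrc1 and Uqcrc2 had -0.00 ± 0.0438 and -0.05 ± 0.0467. Uqcrq, a small membrane subunit, was lowest, with its leading row Uqcrq.1 at -0.08 ± 0.0916. None of these 9 leading rows reached an unadjusted p under 0.05 in DESeq2. Abundant genes as a whole also lay more often below 0, 60.5% of leading rows with a mean of 1000 or more. After recentring on the median of those rows, 8 of the 9 were below 0.

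Complex V, the ATP synthase, held the most abundant transcripts of the chain. Its summed fitted means were 310833 in Ctrl and 307390 in Psat1iKO. Atp5b, the catalytic beta subunit, had the highest mean count of all members, with fitted means of 101665 in Ctrl and 101060 in Psat1iKO and a difference of -0.01 ± 0.0342. Atp5a1, which forms the catalytic ring with it, had 73360 and 73246, a difference of -0.00 ± 0.0229, the narrowest interval of any member. Atp5c1, the central gamma shaft turned by the membrane rotor, had the smallest p of the 85 members. Its leading row Atp5c1.1 had fitted means of 9058 in Ctrl and 8566 in Psat1iKO, a difference of -0.08 ± 0.0351 with an unadjusted p of 0.0218, and it did not pass (DESeq2 adjusted p = 0.596, from the authors' deposited table). Atp5j, a subunit of the peripheral stalk, lay at the other end of the complex, with Atp5j.1 at 0.08 ± 0.0542. In all, 15 of 17 genes of complex V lay below 0, and 11 did after recentring on genes with a mean of 1000 or more.

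The 3 genes for the c subunit of the membrane rotor encode the same mature protein. Atp5g1, Atp5g2 and Atp5g3 had leading rows with mean counts of 7486, 10464 and 19746, and differences of -0.03 ± 0.0745, -0.01 ± 0.0410 and -0.03 ± 0.0401 in the authors' deposited table. Per kilobase of transcript their mean levels were 3402, 17857 and 36475, and Atp5g3 was first. The lengths used were 2675.5, 586 and 718.5 bases, and the gene totals were 9103, 10464 and 26207. The gap per kilobase between Atp5g1 and Atp5g2 thus rests largely on the length taken for Atp5g1.

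**Figure D2:**
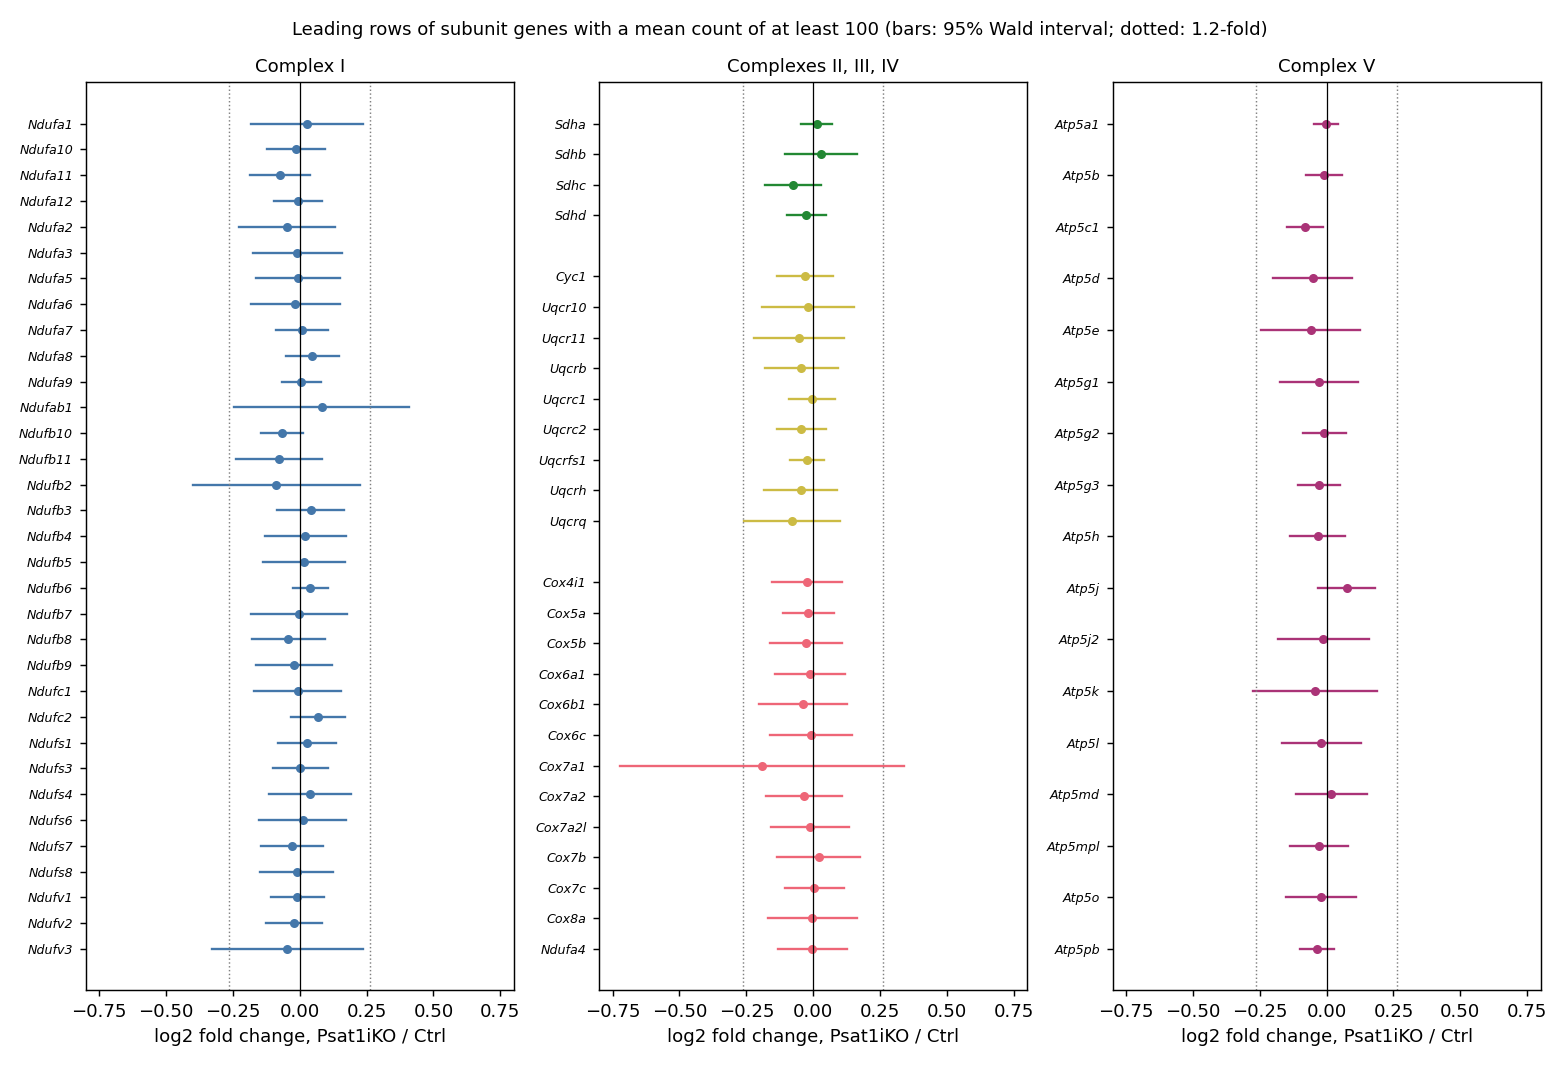
Difference Psat1iKO minus Ctrl (log2) of the leading rows of complex I to V members with a mean count of at least 100, 1 of them left out, with bars of the 95% Wald interval and dotted lines at a 1.2-fold difference. Points lie near 0, and Cox7a1, Ndufab1, Ndufb2, Ndufv3 and Atp5k are the members whose bars cross a dotted line.

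Complex IV, cytochrome c oxidase, is where adult muscle and other tissues use different nuclear genes. Its catalytic core is encoded in mitochondrial DNA. None of the 13 subunit genes of that DNA was found by name in the authors' deposited table. Of the nuclear subunits around the core, Cox5a had a difference of -0.02 ± 0.0485 and Cox5b one of -0.03 ± 0.0691. Cox4i1, the most abundant by mean count, had fitted means for its leading row Cox4i1.1 of 18581 in Ctrl and 18285 in Psat1iKO, a difference of -0.02 ± 0.0660 in the authors' deposited table. Over the 13 complex IV genes with a mean of 100 or more, differences ran from -0.19 for Cox7a1 to 0.02 for Cox7b.

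The isoforms of adult striated muscle, Cox6a2, Cox7a1 and Cox8b, were scarce in both genotypes and their counterparts found in most tissues were abundant. Cox6a2 had fitted means of 17.9 in Ctrl and 13.1 in Psat1iKO, and Cox6a1 had 10560 and 10479. Per kilobase of transcript, the mean level of Cox6a1 was 809 times that of Cox6a2. Cox8b had fitted means of 11.7 and 9.69, and Cox8a had 11667 and 11646, with 714 times the level per kilobase. The gap was narrower for Cox7a1, with fitted means of 114 and 99.3, against 5089 and 4972 for Cox7a2, a ratio per kilobase of 28.2.

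None of the 3 muscle isoforms was called, and their intervals were wide. The differences were -0.45 ± 0.567 for Cox6a2, -0.19 ± 0.271 for Cox7a1 and -0.27 ± 0.789 for Cox8b in the authors' deposited table. The interval for Cox7a1, the best measured, ran from -0.72 to 0.34, so neither a 1.5-fold lower level nor no difference lay outside it. The counterparts were bounded far more tightly, with -0.01 ± 0.0668 for Cox6a1, -0.03 ± 0.0720 for Cox7a2 and -0.00 ± 0.0845 for Cox8a. As a share of each pair's level per kilobase, the muscle isoform made up 0.142% in Ctrl and 0.105% in Psat1iKO for Cox6a2, 3.61% and 3.24% for Cox7a1, and 0.153% and 0.127% for Cox8b. Whether the difference varied between isoforms of a pair was not tested, since that needs values per library. Adult myofibre markers were measured beside them as 14 of 15 genes, with 0 leading rows called, summed fitted means of 64823 in Ctrl and 61291 in Psat1iKO, and 1 leading row at an unadjusted p under 0.05 in DESeq2 (Myh7, on a mean count of 3.34). Their part in the muscle isoform values was not tested.

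**Figure D3:**
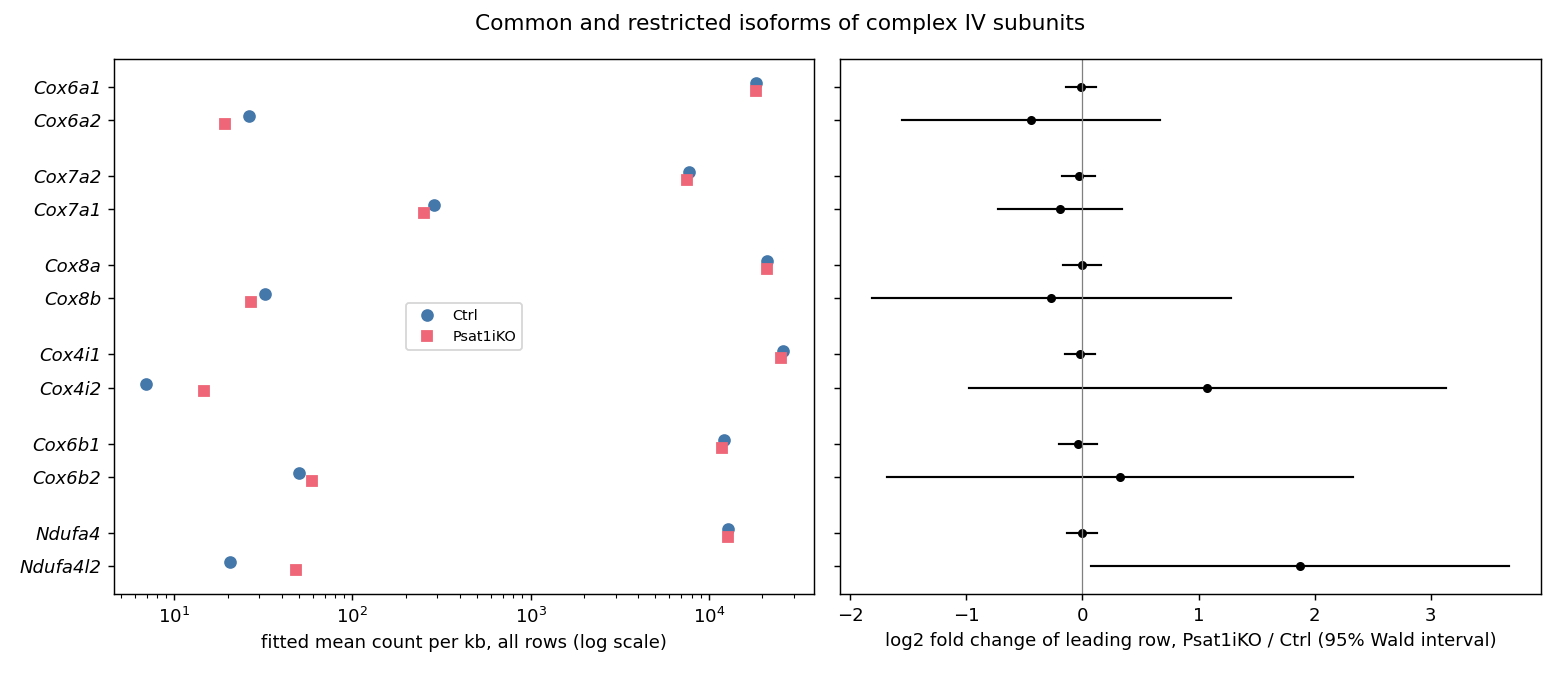
Left, fitted mean count per kilobase of transcript, summed over a gene's rows (log axis), of common and restricted complex IV isoforms in Ctrl (circles) and Psat1iKO (squares), and right, the log2 difference of each leading row with its 95% Wald interval. Common isoforms stand far above restricted ones in both groups, the narrowest gap being that of Cox7a1 and Cox7a2, and the restricted ones have the wide intervals.

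The start regions of common and muscle isoforms are shown so that their sequences can be set side by side. No window was found for Cox6a2, so Cox6a1 is shown without its muscle counterpart. The windows are RefSeq promoter regions of build GRCm38.p6, from 250 bases before the start to 50 after it. Motifs searched were the NRF1 motif (GCGCA, any base, then GCGC), the GABP motif CCGGAAG, the YY1 motif AAGATGGCG and the E-box CAGCTG on both strands, and the TATA box TATAAA on the gene's strand. None of these motifs contains another, though some can overlap in part. Capitals mark every match. The 5 genes shown and the motifs were chosen after values were seen. Cox6a1 lies at chr5:115348909-115349208 (minus strand), Cox8a at chr19:7217567-7217866 (minus), Cox8b at chr7:140900397-140900696 (minus), Cox7a2 at chr9:79759804-79760103 (minus) and Cox7a1 at chr7:30183921-30184220 (plus).
Cox6a1: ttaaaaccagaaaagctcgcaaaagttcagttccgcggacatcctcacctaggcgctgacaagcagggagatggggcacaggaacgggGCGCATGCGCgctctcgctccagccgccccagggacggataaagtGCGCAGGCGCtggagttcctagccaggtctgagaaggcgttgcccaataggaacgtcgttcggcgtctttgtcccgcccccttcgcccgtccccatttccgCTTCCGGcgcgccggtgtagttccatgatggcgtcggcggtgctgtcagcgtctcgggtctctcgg
Cox8a: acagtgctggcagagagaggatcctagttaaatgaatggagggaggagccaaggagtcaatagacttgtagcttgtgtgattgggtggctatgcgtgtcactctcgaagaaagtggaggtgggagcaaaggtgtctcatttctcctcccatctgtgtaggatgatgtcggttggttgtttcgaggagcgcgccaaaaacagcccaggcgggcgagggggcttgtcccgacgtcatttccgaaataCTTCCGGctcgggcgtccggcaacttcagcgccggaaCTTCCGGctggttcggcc
Cox8b: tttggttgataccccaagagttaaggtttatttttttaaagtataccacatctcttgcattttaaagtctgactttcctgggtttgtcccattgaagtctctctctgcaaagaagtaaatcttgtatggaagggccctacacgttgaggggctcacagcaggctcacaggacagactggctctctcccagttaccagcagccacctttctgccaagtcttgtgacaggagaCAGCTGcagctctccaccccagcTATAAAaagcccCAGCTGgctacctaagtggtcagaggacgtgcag
Cox7a2: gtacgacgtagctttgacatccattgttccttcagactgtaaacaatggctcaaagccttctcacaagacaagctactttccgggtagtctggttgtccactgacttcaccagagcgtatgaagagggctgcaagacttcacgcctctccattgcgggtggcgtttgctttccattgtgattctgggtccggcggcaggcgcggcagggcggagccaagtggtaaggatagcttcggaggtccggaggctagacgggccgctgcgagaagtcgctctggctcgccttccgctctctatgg
Cox7a1: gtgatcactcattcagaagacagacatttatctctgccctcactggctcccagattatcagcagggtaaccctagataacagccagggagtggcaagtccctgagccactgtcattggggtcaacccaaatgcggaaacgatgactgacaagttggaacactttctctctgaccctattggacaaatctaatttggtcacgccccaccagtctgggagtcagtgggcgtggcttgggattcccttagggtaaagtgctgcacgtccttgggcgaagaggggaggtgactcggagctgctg

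The window of Cox6a1 held 2 NRF1 matches and 1 GABP match, and that of Cox8a held 2 GABP matches. Cox8b held 2 E-box matches and 1 TATA match, and no NRF1 or GABP match. The windows of Cox7a2 and Cox7a1 held no match of any of the 5 motifs. Over all members with a window, 68 genes with 73 windows, 23.3% held an NRF1 match, against 4.6% of all 32851 windows and 12.4% of the 5318 windows of genes with a leading mean of 1000 or more. For GABP the shares were 23.3%, 8.86% and 20.6%. The YY1 motif was in 9.59% of member windows, against 1.4% of all and 4.25% of those of abundant genes. The E-box was in 6.85% of member windows, 16.3% of all windows and 13.1% of those of abundant genes. A match of these letters is a description and not a bound site.

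Other restricted isoforms had low levels with wide intervals. Ndufa4l2 had fitted means for its leading row of 12.3 in Ctrl and 44.9 in Psat1iKO, a difference of 1.87 ± 0.918 with an unadjusted p of 0.0413, and did not pass (DESeq2 adjusted p = 0.771, from the authors' deposited table). Summed over both of its rows, the difference was 1.23. Its counterpart Ndufa4 had 6834 and 6819, a difference of -0.00 ± 0.0663. Cox4i2 had fitted means of 5.06 and 10.7, a difference of 1.08 ± 1.05, and Cox6b2, by its leading row Cox6b2.4, had 0.32 ± 1.02. Cox6b1 had -0.04 ± 0.0833, and Cox7a2l, a relative of Cox7a2 with a known role in joining complexes III and IV, had -0.01 ± 0.0747. Cox8c, a further isoform, is not among the members found.

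Ndufa4l2 and Cox4i2 are known from mural cells of vessels, and pericyte markers were also measured. All 5 of 5 pericyte markers had rows, with summed fitted means of 4777 in Ctrl and 6149 in Psat1iKO, 4 of 5 leading rows above 0 and a median difference of 1.04. Of their rows, 0 leading rows and 1 minor row, Myh11.2, were called, and Rgs5.1 had 1.04 ± 0.352 with an unadjusted p of 0.00327 (DESeq2 adjusted p = 0.211, from the authors' deposited table). The part of these cells in the values of Ndufa4l2 and Cox4i2 was not tested.

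**Figure D4:**
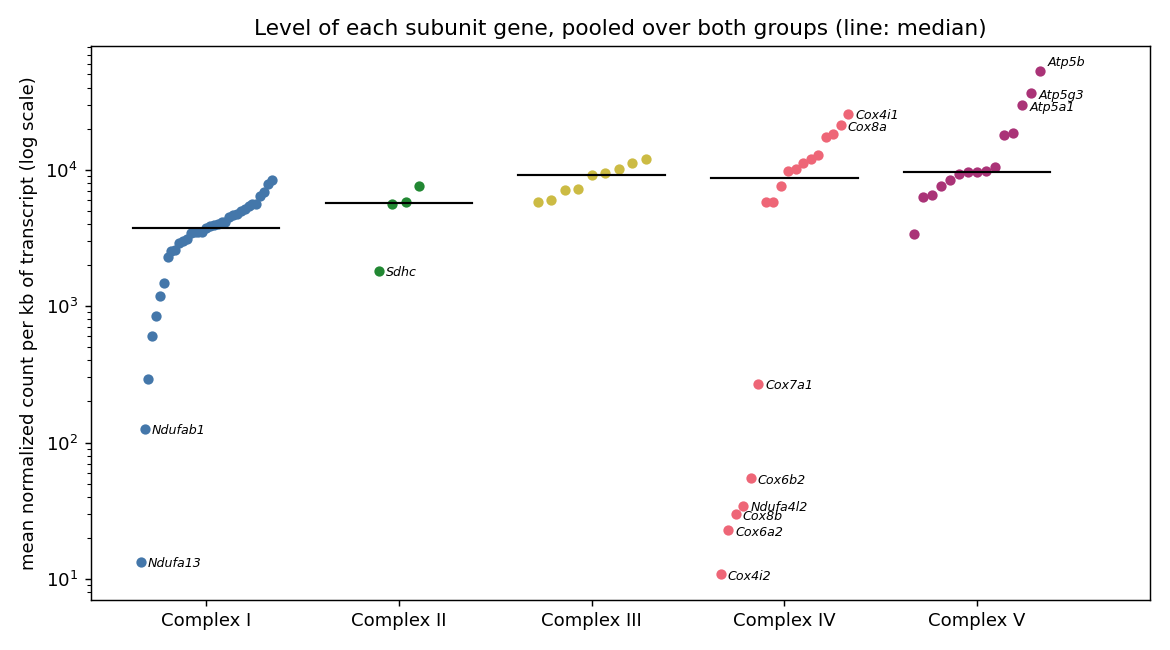
Mean normalized count per kilobase of transcript, pooled over both groups (log axis), for the 81 members with a length, 1 point per gene with a line at each complex's median. Complex V reaches highest with Atp5b at 52903, and the restricted isoforms form the low group of complex IV.

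Levels can be compared between genes per kilobase of transcript. Lengths from GENCODE M21 were found for 81 of the 85 members. The median mean level per kilobase was 3721 for complex I, 5669 for complex II, 9135 for complex III, 8691 for complex IV and 9697 for complex V. Atp5b was highest at 52903, followed by Atp5g3 at 36475, Atp5a1 at 29665 and Cox4i1 at 25740. Sdhc was lowest of complex II at 1823, from a gene total of 5782 and a length of 3171 bases. Sdhb had 5572, from a gene total of 6363 and a length of 1142 bases. The gap between them thus rests largely on the length taken for Sdhc. Because only pooled means and 1 fold change per row were deposited, the spread of these levels between libraries is not known.

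The 1 member with a large difference at a substantial count was Ndufs5-ps, a transcribed pseudogene of the complex I subunit Ndufs5. Its fitted means were 273 in Ctrl and 1301 in Psat1iKO, a difference of 2.25 ± 1.08 with a 95% interval from 0.13 to 4.38, and it did not pass (DESeq2 adjusted p = 0.739, unadjusted p = 0.0374, in the authors' deposited table). Its SE was larger than that of all but 14 of the 3793 leading rows of like mean, whose median SE was 0.120. RefSeq places it at chr16:42955580-42956079 (GRCm38), and the matching GENCODE M21 copy, chr16:42955631-42955949 on the plus strand, lies within the gene Zbtb20.

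The rule left out the parent gene Ndufs5, a complex I subunit at chr4:123712710-123718202 (GRCm38, minus strand), and that gene was called. Its fitted means were 2198 in Ctrl and 1134 in Psat1iKO, and it fell by 0.95 ± 0.211 on the log2 scale (DESeq2 adjusted p = 0.00209, from the authors' deposited table). With Ndufs5 counted, 1 nuclear-encoded subunit row was thus called, beside 0.656% of all rows and 0.338% of all leading rows. No result about the subunits as a set is read from this 1 call. The summed fitted means of Ndufs5 and Ndufs5-ps were 2470 in Ctrl and 2435 in Psat1iKO, a difference of -0.02. No error was computed for this sum, and its Ndufs5-ps part rests on the wide interval given above. Ndufs5-ps made up 11.0% of that sum in Ctrl and 53.4% in Psat1iKO.

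The sequences of the pair are shown because reads from the stretch they share are hard to tell apart. The alignment covered positions 93 to 411 of the 525 bases of the Ndufs5 transcript, and the whole GENCODE copy. Bases outside it, also those of the wider RefSeq locus, were not compared. Of the 319 aligned bases, 317 were identical (99.4%), and the longest identical run was 214 bases. The differences are T173C and A197G, with the Ndufs5 base first and positions counted from the 5' end of the Ndufs5 transcript in GENCODE M21. The stretch printed is the first 150 aligned bases, transcript positions 93 to 242 of Ndufs5 and chr16:42955631-42955780 of the copy, and capitals mark the differing bases.
Ndufs5: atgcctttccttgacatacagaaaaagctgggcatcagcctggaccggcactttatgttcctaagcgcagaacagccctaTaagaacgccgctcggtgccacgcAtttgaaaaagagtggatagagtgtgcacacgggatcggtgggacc
Ndufs5-ps: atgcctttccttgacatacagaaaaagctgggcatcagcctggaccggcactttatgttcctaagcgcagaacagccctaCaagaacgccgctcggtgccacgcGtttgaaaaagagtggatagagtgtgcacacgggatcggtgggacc

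How reads were divided between such copies is not given. The values of Ndufs5 and Ndufs5-ps are therefore uncertain each on its own, and a difference in the level of the 2 loci cannot be told apart from a difference in how reads were assigned.

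**Figure D5:**
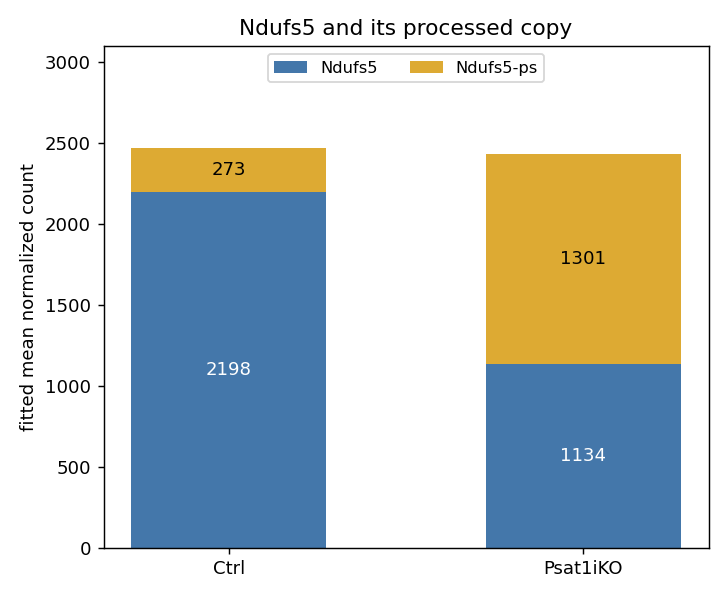
Fitted mean normalized counts of Ndufs5 (blue) and its near-identical copy Ndufs5-ps (yellow), stacked, in Ctrl and Psat1iKO. The parts of the bars differ between groups in opposite directions, and the bar heights are 2470 and 2435, with no error computed for them.

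The other rows of the members gave no call. The 22 genes with several rows had 36 minor rows, and the leading row held a median of 93.8% of their counts. At an unadjusted p under 0.05 in DESeq2 the count was 0 of 36, against 7.65% of all 20170 minor rows and 6.04% of all rows. A difference of at least 1 in either direction was listed for 10 rows of members, and apart from Ndufs5-ps the highest mean count among them was 28.6.

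Genes that build or serve the chain were read from other lists. All 47 respiratory chain assembly factors were measured, with 0 of 102 rows called, a median of -0.01 and 1 leading row at an unadjusted p under 0.05 in DESeq2. That was Coa3, which acts in complex IV assembly, with -0.11 ± 0.0535 (DESeq2 adjusted p = 0.726, from the authors' deposited table). Surf1, a complex IV assembly factor, had -0.49 ± 0.253 in its leading row Surf1.1, which held 54.9% of its counts, and a difference of -0.11 in the gene total. Lyrm7, which acts on the Rieske protein, had 0.71 ± 0.429 in a leading row with 84.7% of its counts, and 0.48 in the gene total. Of 19 genes of electron carriers and coenzyme Q synthesis, 18 were measured and 0 of 45 rows called, with 0 leading rows at an unadjusted p under 0.05 in DESeq2 and a median of 0.03. All 78 genes of the mitochondrial ribosome and RNA handling were measured, with 0 of 131 rows called, a median of -0.02 and 1 leading row at an unadjusted p under 0.05 in DESeq2, Mrpl46 at -0.11 ± 0.0556. Over all rows 0.656% were called, and at that rate counts of 0 do not set these lists apart from other genes.

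Regulators of mitochondrial biogenesis held called rows. Of 24 genes 23 were measured, and 6 of 89 rows were called, 3 higher and 3 lower, beside 0.656% of all rows. Of the 23 leading rows 1 was called, beside 0.338% of all leading rows. That row, Gabpb1.1 of the GABP beta subunit, rose by 1.08 ± 0.255, from fitted means of 347 in Ctrl to 734 in Psat1iKO (DESeq2 adjusted p = 0.00627, from the authors' deposited table). It held 33.3% of the counts of Gabpb1, and 2 minor rows of the gene, Gabpb1.2 and Gabpb1.9, fell. Gabpb1.2 had fitted means of 124 in Ctrl and 0.173 in Psat1iKO, and Gabpb1.9 had 105 and 2.79, on mean counts of 62.3 and 54.1. The gene total of Gabpb1 was 1611 in Ctrl and 1631 in Psat1iKO. Gabpa.6, a minor row with 11.0% of the counts of the GABP alpha subunit gene, rose by 0.76 ± 0.146 (DESeq2 adjusted p = 0.000103, from the authors' deposited table), and the leading row Gabpa.3 had -0.14 ± 0.170. The other 2 called rows were Esrra.2, which fell, and Gabpb2.4, which rose, on mean counts of 39.8 and 32.0. They held 1.83% and 1.21% of the counts of their genes. The leading rows Esrra, at -0.07 ± 0.0953, and Gabpb2.1, at -0.24 ± 0.214, were not called. Fitted means were 79.4 in Ctrl and 0.173 in Psat1iKO for Esrra.2, and 0.190 and 63.8 for Gabpb2.4. How reads were divided among the rows of a gene is not given, so no difference of a whole gene is read from these rows. Leading rows of the factors Nrf1, Yy1 and Tfam, namely Nrf1.11, Yy1 and Tfam.1, had 0.01 ± 0.0891, -0.05 ± 0.0412 and -0.06 ± 0.0451 and were not called. Ppargc1a, a transcriptional coactivator, had -0.59 ± 1.26 in a leading row with a mean count of 64.3 and 50.8% of its counts. The gene total of Ppargc1a differed by 0.15 in the other direction. The rows of these regulators were named after their values were seen where they are not the 3 of smallest p.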

How the data were processed

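Poly(A) RNA of 4 Ctrl and 4 Psat1iKO libraries was sequenced. The authors used build mm10, HISAT2 2.2.1 and DESeq2, given there as 4.2.0, per the submitters' processing notes. No counting program, annotation, strand setting or filter is named; these were not given in the sources used here. The authors' deposited table gives for each row a mean normalized count (a signal averaged over libraries), a log2 fold change of Ctrl over Psat1iKO with its SE, a Wald statistic (a score) and a p-value with its adjusted p, per the file headers. Benjamini-Hochberg adjustment of all rows gave the deposited adjusted p to within 1.39e-05. The lists of enriched terms were not used.

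Here the sign was turned to Psat1iKO minus Ctrl, and the authors' DESeq2 calls at an adjusted p under 0.05 were taken over all 36743 rows. Intervals are 1.96 SE wide on each side. Fitted means, gene totals (sums over rows, no test) and levels per kilobase (gene total over the median length of a gene's best-ranked APPRIS principal protein-coding transcripts in GENCODE M21) were computed with Python 3.11.15 and pandas 2.3.3. Ndufs5 was aligned to its copy with Biopython 1.88. Scripts were tested on simulated data. Depth per library is unknown, so no counting interval is given. A count test needs values per library and was not run.

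The members, gene lists and tests were chosen with earlier results of these data known. Named were isoform sets, core subunits, the lowest, highest and most abundant per complex, members at an unadjusted p under 0.05, up to 3 genes of smallest p per other list, Psat1 and Ndufs5. The values of 1 complex I member are not reported here. Alternatives were other adjustments, abundance limits, recentring and membership.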

Additional observations from a re-analysis of the deposited data

How the results depend on the processing

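The count of 0 called rows stayed 0 under readjustment over leading rows or over rows with a mean of 100 or more. It was 3 at an unadjusted p under 0.05 and 1 with Ndufs5 added. Over 38 alternatives the medians, all and per complex, lay between -0.04 and 0.01, and several changed sign on recentring, so no direction is drawn from them. Of 58 members below 0, 45 stayed below after recentring on leading rows with a mean of 100 or more (a shift of -0.01) and 41 after recentring on those of 1000 or more, chosen after seeing the data. In the latter, complex I went from 19 to 12 and complex IV from 13 to 8. No paired analysis was possible because no values per library were analysed. For the same reason leaving out libraries, edgeR with TMM, DESeq2 size factors, other filters on low counts and a replicate block were not run. Depth per library is unknown, and rows of low mean count bound no useful size of difference.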

Other observations

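Marker lists of other cell types were measured beside the subunits, with 0 leading rows called in each. Endothelial markers (6 of 6 measured) had summed fitted means of 199 in Ctrl and 161 in Psat1iKO, with all 6 leading rows below 0 and a median difference of -0.91. Fibroblast markers (5 of 5) had 13147 and 13990, with all 5 leading rows above 0 and a median of 0.19. Brown or beige adipocyte markers (4 of 8) had 10120 and 9497, with 3 of 4 below 0 and a median of -0.05. Most of these sums was Pdk4, with 9560 and 8929, while Fabp4 had 53.5 and 34.3 and Elovl3 had 182 and 211. Erythroid markers (3 of 4) had 115 and 81.5, with 1 of 3 below 0 and a median of 0.12. By DESeq2 at an unadjusted p under 0.05 the counts were 0, 0, 1 and 0 leading rows, the 1 being Pdk4, a kinase that restrains pyruvate entry into mitochondria, at -0.10 ± 0.0423. The part of these cells in the subunit values was not tested.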
